A study of Rattus norvegicus with 12 samples.

Results

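The genes of the cardiac gap junction and the intercalated disc were followed in rat left ventricle. The members were chosen by gene symbol from a list of 10 names: Gja1, Gja4, Gja5, Gjc1, Tjp1, Cdh2, Dsp, Pkp2, Jup and Dsg2. The list was drawn up with earlier results of these data known, so its counts and p-values are given as a description. Rows for 9 of the 10 symbols were found among 34700 genes, and Pkp2, a desmosomal plakophilin, was not analysed here.

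RNA was sequenced from the left ventricular anterior wall of 12 male Sprague-Dawley rats, which were 8 weeks old at surgery and gave tissue 12 weeks after it. Sham, HF, HFE and BAIBA had 3 rats each. Sham surgery left the coronary artery open, whereas HF, HFE and BAIBA rats had heart failure after their left anterior descending artery was tied, and the HF rats stayed sedentary. Treadmill running in the HFE group took 60 min per session, with 5 sessions a week for 8 weeks. BAIBA, β-aminoisobutyric acid, is a small molecule that muscle releases during exercise, and it was gavaged daily at 75 mg/kg for 8 weeks, while in the BAIBA studies the Sham and HF rats were gavaged with water alone according to the methods. The study's supplement instead describes BAIBA given to the Sham and HF groups, and the labels and methods were followed here. The methods place the BAIBA samples around the infarct, and the results place both HF and BAIBA samples there, so the site of sampling and the group cannot be told apart in comparisons of these groups with Sham or HFE. If only the BAIBA samples came from there, as in the methods, the same holds for BAIBA against HF. Permanent ligation leaves an infarct whose size differs between animals, and no infarct size for these 12 rats was used here.

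Cardiomyocytes are joined end to end at the intercalated disc. Gap junctions in the disc are channels built from connexins, which let current and small molecules pass from cell to cell. Adherens junctions, built on N-cadherin, and desmosomes, built on desmosomal cadherins with plakoglobin and desmoplakin, hold the cells together and anchor actin and desmin filaments. Connexin43 (Gja1) is the main connexin of working ventricular muscle, connexin40 (Gja5) is found in atrial muscle, the conduction system and arterial endothelium, connexin37 (Gja4) in endothelium, and connexin45 (Gjc1) in the conduction system. In failing hearts connexin43 is known for lower abundance and for moving from the cell ends to the lateral sides, which RNA levels cannot show.

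The promoters of 3 connexin members are printed because the results turn on Gja1, and Gja5 and Gja4 are related connexins that can be set beside it. Another annotated transcript of Gja1 begins inside its window. Each is the 250 bases before the gene's start in the RefSeq annotation of GRCr8, read 5′ to 3′ on the gene's strand, and 7 of the 10 members had an entry in that table. The Gja1 sequence is chr20:36302314-36302563 on the plus strand, Gja5 is chr2:187290977-187291226 on the plus strand, and Gja4 is chr5:144920325-144920574 on the minus strand. Capitals mark matches to the motifs searched on both strands.
Gja1: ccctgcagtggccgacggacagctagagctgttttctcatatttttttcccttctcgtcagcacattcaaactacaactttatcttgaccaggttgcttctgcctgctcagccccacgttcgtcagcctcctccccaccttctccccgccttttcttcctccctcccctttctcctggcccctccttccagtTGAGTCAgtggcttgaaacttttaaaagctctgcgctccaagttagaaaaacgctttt
Gja5: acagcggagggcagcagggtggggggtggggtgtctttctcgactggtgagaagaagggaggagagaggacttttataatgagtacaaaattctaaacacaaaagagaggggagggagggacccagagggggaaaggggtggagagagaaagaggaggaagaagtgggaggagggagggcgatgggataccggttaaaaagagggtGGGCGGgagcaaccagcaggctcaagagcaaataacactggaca
Gja4: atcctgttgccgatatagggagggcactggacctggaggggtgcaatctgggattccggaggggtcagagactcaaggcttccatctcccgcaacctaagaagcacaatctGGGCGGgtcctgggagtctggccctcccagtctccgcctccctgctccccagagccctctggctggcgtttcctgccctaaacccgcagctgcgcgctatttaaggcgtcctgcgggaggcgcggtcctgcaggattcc
The motifs searched were AP-1, spelled TGANTCA, the GC box, spelled GGGCGG, the E box, spelled CACGTG, the T-box site, spelled AGGTGT, the NKX2-5 site, spelled TNAAGTG, and the CRE, spelled TGACGT. No matches of different motifs overlapped. The Gja1 window held 1 match, an AP-1 site that began 58 bases before the start, and AP-1 matches occurred in 6.34% of the 33469 promoters of the table over the same 250 bases. The Gja5 window held a GC box 44 bases before the start, and the Gja4 window held one 139 bases before it. GC boxes occurred in 30.5% of all promoters. No E box, T-box, NKX2-5 or CRE letters were in in these 3 windows, while 5.59%, 11.6%, 9.89% and 6.95% of all promoters held them. The GC content was 51.2% for Gja1, 54.8% for Gja5 and 63.2% for Gja4.

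The total count on genes was 14812541 to 19732588 per rat (median 16481829.5). Counts are given as CPM (library-scaled counts) and levels of different genes are compared as FPKM, which divides by gene length. Cardiomyocyte markers (Tnnt2, Tnni3, Actc1, Myh6, Ryr2 and Pln) were counted in every rat, and their summed level was 39535 to 41392 CPM in Sham, 32664 to 34555 CPM in HF, 32554 to 37901 CPM in HFE and 32270 to 40219 CPM in BAIBA. Myh6 was the largest part of this sum in every rat, at 19603, 18993 and 17422 CPM in Sham and 11252, 13878 and 11421 CPM in HF. The markers did not move together. In HF against Sham 2 of the 6, Myh6 and Pln, were lower without overlap (beside 11.8% of all genes). In HFE against Sham, Tnnt2 and Actc1 were higher and Myh6 lower without overlap (beside 17.7%). The 6 markers show heart muscle but not the chamber it came from. The atrial marker Myl7 was also counted, at 40.6 CPM in Sham rat 3, 32.4 CPM in HFE rat 1 and at most 0.669 CPM in the BAIBA rats. In bulk tissue, fewer cells of a type and less RNA per cell cannot be told apart.

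Of the connexins, Gja1 was by far the most abundant per length. Its FPKM was 106 to 199 over the 12 rats (median 143). Gja3, a connexin outside the member list, followed at 8.0 to 15.6 FPKM (median 10.2), then Gjc1 at 5.19 to 8.82 FPKM (median 6.72), Gja4 at 3.32 to 9.03 FPKM (median 6.56) and Gja5 at 2.48 to 5.19 FPKM (median 3.33). The ranges of Gja3, Gjc1 and Gja4 overlapped, so the order of these neighbours was not separated by the spread between rats. Of the 19 connexins in the table, 5 had a median above 1 FPKM and 3 had no count in any rat. Of the summed connexin FPKM, Gja1 made up 79.5 to 86.6% in Sham, 81.4 to 85.8% in HF, 84.0 to 87.3% in HFE and 79.1 to 81.7% in BAIBA. The HFE and BAIBA ranges of this share did not overlap, and the other pairs of groups did.

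**Figure D1:**
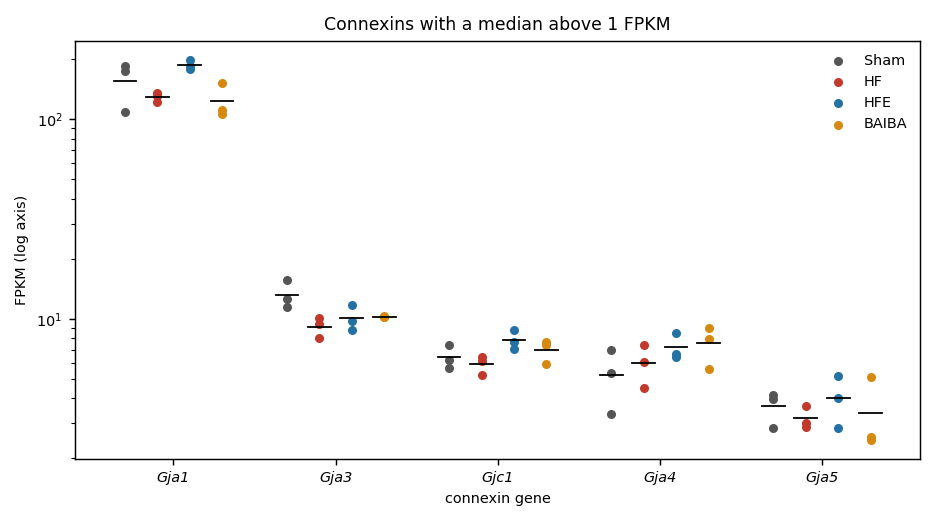
FPKM on a log axis for the 5 connexins with a median above 1 FPKM, in each of the 12 rats, with a bar at each group mean. Gja1 lies between 106 and 199 FPKM, above the 15.6 FPKM of the highest other connexin.

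Of the junction genes that hold cells together, Dsp, which encodes desmoplakin, was the most abundant at 121 to 206 FPKM (median 143), a range that overlapped that of Gja1. Cdh2, which encodes N-cadherin, was at 55.1 to 84.3 FPKM (median 67.1). Jup, which encodes plakoglobin, was at 33.3 to 49.3 FPKM (median 38.6). Tjp1, which encodes the scaffold ZO-1 that binds the tail of connexin43, was at 18.3 to 29.2 FPKM (median 22.5), and Dsg2, which encodes the desmosomal cadherin desmoglein-2, was at 11.9 to 20.2 FPKM (median 14.6). The Dsg2 and Tjp1 ranges overlapped, whereas Cdh2, Jup and Tjp1 were in this order without overlap.

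Comparisons between the groups, 6 in all, were made with edgeR's quasi-likelihood test over all genes, and a gene was called at a Benjamini-Hochberg adjusted p under 0.05 with an absolute log2 fold change over 1. None of the 9 members was called in any of them. The largest member change was 0.67 in size on the log2 scale, below the fold limit, so a call was not possible for these genes whatever their p. Among all genes the share called was 0% in HF against Sham, 0% in HFE against HF, 0% in BAIBA against HF, 0% in HFE against Sham, 0.0402% in BAIBA against Sham and 0.0808% in BAIBA against HFE. Without the fold limit, DESeq2 gave an adjusted p under 0.05 to 1 of the 9 members, Gja1, in HFE against HF, where 0.322% of all genes passed, and to the same gene in BAIBA against HFE, where 2.15% passed. This setting was chosen after the data were seen.

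At an unadjusted edgeR p under 0.05, 0 members passed in HF against Sham beside 6% of all genes, and 0 passed in BAIBA against HF beside 5.55%. In HFE against HF, Gja1 and Gjc1 passed (2 of 9, beside 7.62%). In BAIBA against HFE, Gja1 and Cdh2 passed (2 of 9, beside 9.57%), in HFE against Sham Gjc1 and Dsp (2 of 9, beside 11.2%), and in BAIBA against Sham Cdh2 and Dsg2 (2 of 9, beside 7.41%). DESeq2, and limma on log2(FPKM + 1), passed the same genes at an unadjusted p in these comparisons, except that Gjc1 did not pass in HFE against Sham. The list was not drawn independently of the data, so nothing about the list follows from these shares.

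The CPM of the 2 groups did not overlap for 1 member in HF against Sham (Jup, beside 11.8% of all genes), 2 in HFE against HF (Gja1 and Gjc1, beside 14.4%), 0 in BAIBA against HF (beside 11.4%), 2 in BAIBA against HFE (Gja1 and Cdh2, beside 15.5%), 2 in HFE against Sham (Gja1 and Dsp, beside 17.7%) and 2 in BAIBA against Sham (Cdh2 and Dsg2, beside 12.7%). When the 4 groups were tested together with edgeR, 0% of all genes and no member had an adjusted p under 0.05. At an unadjusted p under 0.05, Gja1 (adjusted p = 0.396) and Cdh2 (adjusted p = 0.482) passed, beside 9.71% of all genes. DESeq2's likelihood ratio test gave Gja1 an adjusted p of 0.0473, with 2.26% of all genes called.

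**Figure D2:**
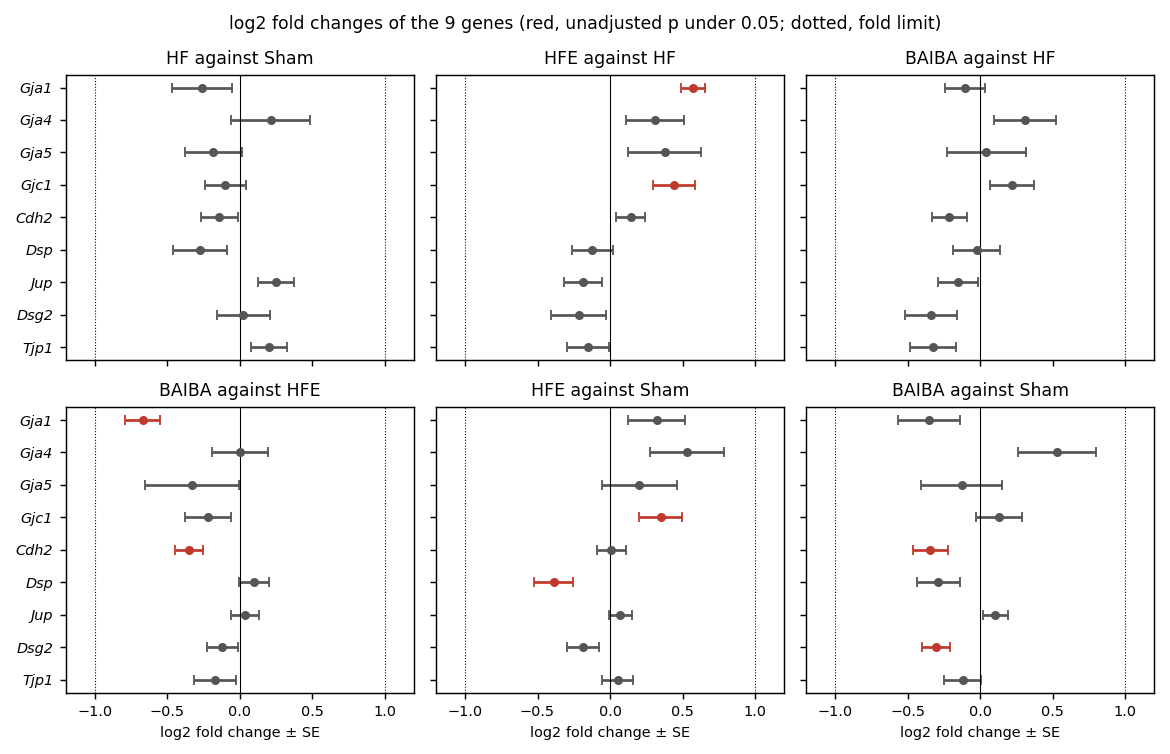
log2 fold change (± SE) of the 9 genes in each of the 6 comparisons, with red for an unadjusted edgeR p under 0.05 and dotted lines at the fold limit. Every point lies inside the limit, and the largest are Gja1 in HFE against HF (0.57) and in BAIBA against HFE (-0.67).

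Gja1 stood highest in the exercised rats. It was counted at 612, 603 and 586 CPM in the HFE rats, 386, 385 and 440 CPM in the HF rats, 440, 358 and 330 CPM in the BAIBA rats, and 547, 567 and 333 CPM in the Sham rats. All 3 HFE values lay above every other value in CPM, and the HF and BAIBA values overlapped. In FPKM, Sham rat 2 was at 185, above HFE rats 2 and 3 at 184 and 179. The Sham values were the most spread, with rats 1 and 2 near the HFE level and rat 3 near the lowest BAIBA value. The means were 600 ± 13.5 CPM in HFE, 483 ± 130 CPM in Sham, 404 ± 31.2 CPM in HF and 376 ± 57.2 CPM in BAIBA (SD, n = 3 each).

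In HFE against HF, Gja1 was 1.49-fold higher (log2 fold change 0.57, SE 0.08). Ordered by p, it was number 5 of 14938 genes, and its edgeR adjusted p was 0.469. With all 12 rats in the fit its SE was 0.18 and it was number 229 of 15617, and without HF rat 1 or 2 it was number 30 or 32. DESeq2 gave it an adjusted p of 5.29e-06. Leaving out any 1 of the 6 rats gave log2 fold changes of 0.54 to 0.63 and edgeR adjusted p-values of 0.192 to 0.827. The direction and size were alike under these settings, and the adjusted p depended on the tool. Of the 6 cardiomyocyte markers, 3 also stood higher in HFE than in HF without overlap, beside 14.4% of all genes in either direction. The log2 fold changes of 2 others, Myh6 and Ryr2, were below 0. The part of heart muscle content in the Gja1 difference was not tested.

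In BAIBA against HFE, Gja1 was at 0.628 of the HFE level (log2 fold change -0.67, SE 0.12), at number 57 of 14844 genes ordered by p, with an edgeR adjusted p of 0.131. DESeq2 gave an adjusted p of 0.000228. Without BAIBA rat 1, the highest of its group, the log2 fold change was -0.81 and the edgeR adjusted p 0.0369. Leaving out any other of the 6 rats gave adjusted p-values of 0.197 to 0.416. The adjusted p was 0.0409 without the filter on low counts, 0.215 with library-size scaling and 0.408 with limma on log2(FPKM + 1). BAIBA rat 1 also stood apart in markers of other cells. Msln was 36.1 CPM there, against 1.03 and 10.3 CPM in the other BAIBA rats and at most 5.33 CPM in the other groups, and among the 12 rats it had the highest summed fibroblast (1902 CPM) and macrophage (108 CPM) markers and the lowest summed endothelial markers (414 CPM). Of the 4 conduction system markers tested, 2 were lower in BAIBA than in HFE without overlap and 1 was higher. The share of all genes without overlap was 15.5%. Hcn4 was at 7.58, 17.3 and 3.14 CPM in BAIBA and 137, 79.3 and 51.0 CPM in HFE. Cntn2 went the other way, at 4.52, 4.04 and 4.28 CPM in BAIBA and 2.26, 1.94 and 2.03 CPM in HFE. The part of these tissue differences in the Gja1 level was not tested.

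The BAIBA and HF values of Gja1 differed by less than their spread (log2 fold change -0.10, SE 0.14, edgeR adjusted p = 0.922). An interval of 2 SE ran from -0.38 to 0.17. HF against Sham gave a log2 fold change of -0.26 (SE 0.20, edgeR adjusted p = 0.855), and its size depended on which Sham rat was left out: it was -0.46 without rat 3 (edgeR adjusted p = 0.394), -0.15 without rat 1 and -0.13 without rat 2. For HFE against Sham the CPM values did not overlap, whereas the FPKM values did. The log2 fold change was 0.32 (SE 0.19, edgeR adjusted p = 0.582), and 0.11, 0.41 and 0.44 without Sham rat 3, 1 and 2. For BAIBA against Sham it was -0.35 (SE 0.21, edgeR adjusted p = 0.780), and -0.56, -0.25 and -0.22 without Sham rat 3, 1 and 2. Without Sham rat 3, the unadjusted edgeR p of Gja1 was 0.0042 in HF against Sham and 0.0062 in BAIBA against Sham. Leaving out any other rat kept it above 0.05 in both comparisons. Sham rat 3 had a total of 14879751 counts, within the range of the HFE rats, and the highest Myl7 level of the 12 rats. Myl7 was 32.4 CPM in HFE rat 1, 27.3 and 11.3 CPM in Sham rats 1 and 2, and 19.7 CPM in HF rat 3. Gja1 in these rats was 612, 547, 567 and 440 CPM. Over the 12 rats the summed atrial markers had r = 0.06 with Gja1. Nppa was the largest part of that sum in every rat, at 454 of 457 CPM in HF rat 2, so this r says little about Myl7. The part of atrial tissue in the Gja1 level of Sham rat 3 was not tested.

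**Figure D3:**
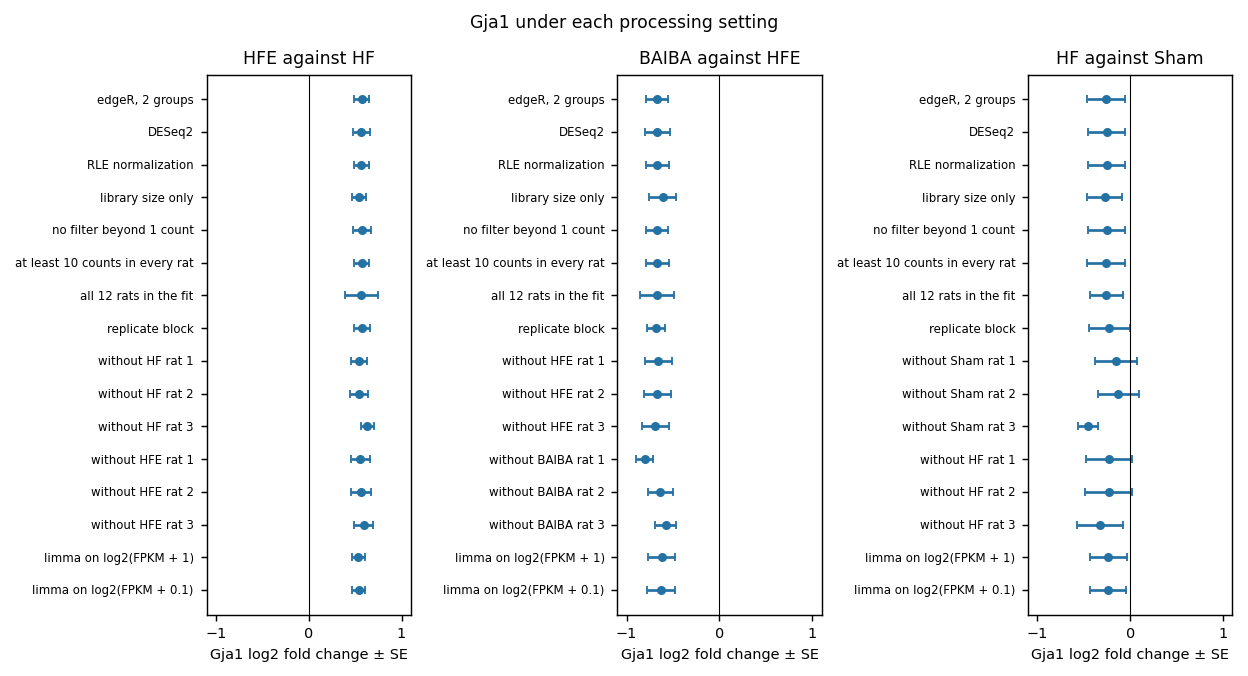
Gja1 log2 fold change (± SE) in HFE against HF, BAIBA against HFE and HF against Sham under each processing setting, one line a setting. The first panel keeps to 0.54 to 0.63 and the second to -0.81 to -0.58, while the third runs from -0.46 without Sham rat 3 to -0.13 without Sham rat 2.

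The minor connexins were counted at low depth. Gjc1 (172 to 298 counts per rat) was at 14.2, 16.3 and 18.9 CPM in HFE, 12.5, 12.8 and 11.1 CPM in HF, 14.6, 15.7 and 12.1 CPM in BAIBA and 12.8, 14.8 and 11.3 CPM in Sham. The HFE values were all above the HF values, and they overlapped those of the other 2 groups. The log2 fold change of HFE against HF was 0.44 (SE 0.14, edgeR adjusted p = 0.627), and that of HFE against Sham was 0.35 (SE 0.15, adjusted p = 0.434). Leaving out HF rat 3 or HFE rat 3 took the unadjusted p of the former above 0.05.

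Gja4 (92 to 239 counts) was at 5.31, 8.36 and 10.8 CPM in Sham, 11.1, 9.75 and 7.47 CPM in HF, 10.5, 10.7 and 14.0 CPM in HFE and 13.3, 9.17 and 12.5 CPM in BAIBA. The groups overlapped in every comparison. The largest log2 fold changes were 0.53 in HFE against Sham (SE 0.25, edgeR adjusted p = 0.486) and 0.53 in BAIBA against Sham (SE 0.27, edgeR adjusted p = 0.733). Without Sham rat 3, the highest of its group, the former was 0.79, and in both comparisons Gja4 then had an unadjusted p under 0.05. Other arterial endothelial markers (Efnb2, Hey1, Sox17 and Dll4) summed to 100 to 111 CPM in Sham, 110 to 135 CPM in HF, 113 to 151 CPM in HFE and 99.0 to 138 CPM in BAIBA, all 4 with a count in every rat. Their part in the Gja4 level was not tested.

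Gja5 (126 to 261 counts) was the most variable member, with a mean coefficient of variation within groups of 26.3%. It was at 12.2, 12.6 and 8.54 CPM in Sham, 8.43, 11.3 and 9.69 CPM in HF, 8.59, 16.8 and 12.9 CPM in HFE and 14.6, 8.15 and 7.60 CPM in BAIBA. Every pair of groups overlapped, and with all rats no comparison had an unadjusted edgeR p under 0.05. Without BAIBA rat 1, BAIBA against HFE and BAIBA against Sham did, and without HFE rat 1, HFE against HF did. The BAIBA mean rested on rat 1: in BAIBA against HFE the log2 fold change was -0.33 with all rats and -0.70 without it.

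Cdh2, the cadherin of the cardiac adherens junction, stood lowest in the BAIBA rats. It was at 238, 274 and 238 CPM in BAIBA, 343, 308 and 307 CPM in HFE, 320, 358 and 277 CPM in Sham and 258, 291 and 319 CPM in HF. The BAIBA values were all below the HFE and Sham values, narrowly so for Sham (274 against 277 CPM), and overlapped the HF values. The log2 fold change of BAIBA against HFE was -0.35 (SE 0.10, edgeR adjusted p = 0.268), and that of BAIBA against Sham was -0.34 (SE 0.12, edgeR adjusted p = 0.620). The unadjusted p of the former stayed under 0.05 with each rat left out, and that of the latter did not without Sham rat 1, Sham rat 2 or BAIBA rat 3. In HFE against Sham the log2 fold change was 0.01, with an interval of 2 SE from -0.19 to 0.21.

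Of the desmosomal genes, Dsp was highest in Sham. It was at 1990, 1380 and 1684 CPM in Sham, 1100, 1576 and 1516 CPM in HF, 1198, 1318 and 1336 CPM in HFE and 1231, 1369 and 1521 CPM in BAIBA. The HFE values lay below all Sham values, although the highest of them, 1336 CPM, was close to the 1380 CPM of Sham rat 2. The log2 fold change of HFE against Sham was -0.39 (SE 0.13, edgeR adjusted p = 0.365) and -0.25 without Sham rat 1, and its unadjusted p was no longer under 0.05 without Sham rat 3 or HFE rat 1. In HF against Sham it was -0.27 (SE 0.19, edgeR adjusted p = 0.843).

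Dsg2 was at 69.5, 75.1 and 74.2 CPM in BAIBA, 87.3, 85.0 and 99.5 CPM in Sham, 78.0, 70.4 and 90.0 CPM in HFE and 71.7, 86.3 and 119 CPM in HF. The BAIBA values were all below the Sham values, with a log2 fold change of -0.31 (SE 0.10, edgeR adjusted p = 0.580). Without Sham rat 3 its unadjusted p was no longer under 0.05. HF had the widest spread, from its lowest to its highest rat. HF rat 3 held the highest Dsg2 of the 12 rats, and without it the log2 fold change of HF against Sham went from 0.02 to -0.20.

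Jup was at 163, 158 and 160 CPM in Sham, 165, 179 and 229 CPM in HF, 181, 169 and 154 CPM in HFE and 163, 184 and 169 CPM in BAIBA. The Sham rats were the most alike, with a standard deviation of 2.55 CPM, and all HF values were above them. The log2 fold change of HF against Sham was 0.25 (SE 0.13, edgeR adjusted p = 0.808), and 0.10 without HF rat 3. HF rat 3 held the highest value of both Jup and Dsg2.

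Tjp1 was at 153, 147 and 164 CPM in Sham, 150, 204 and 179 CPM in HF, 138, 181 and 160 CPM in HFE and 117, 163 and 146 CPM in BAIBA. The groups overlapped in all comparisons. The largest log2 fold change was -0.33 in BAIBA against HF (SE 0.16, edgeR adjusted p = 0.851). The unadjusted edgeR p of this comparison was 0.0787, and 0.0425 with all 12 rats in the fit. It was also under 0.05 with the replicate block, without HF rat 1 and without BAIBA rat 2. In HF against Sham it was under 0.05 only without HF rat 1.

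**Figure D4:**
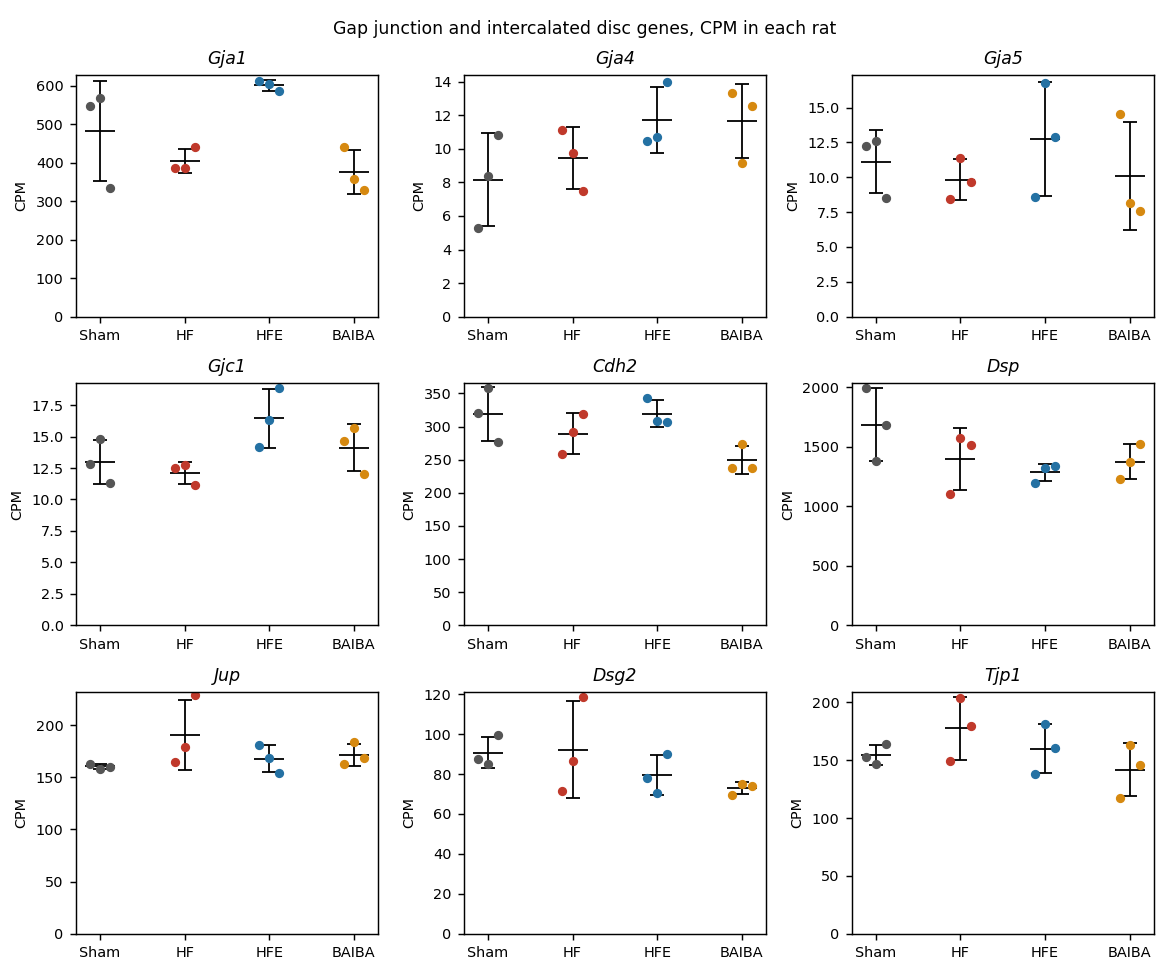
CPM of each of the 9 genes in the 12 rats (points), with the group mean and SD (bars, n = 3). Gja1 in HFE sits at 586 to 612 CPM, above all other rats, and Cdh2 in BAIBA sits at 238 to 274 CPM.

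The members did not vary as a block over the rats. Gja1 ran with Cdh2 (Pearson r = 0.74 of log2 CPM over the 12 rats), Gja5 (r = 0.64) and Gjc1 (r = 0.59), and these were 0.60, 0.59 and 0.43 after the group means were removed. Of the desmosomal genes, Dsp and Dsg2 had r = 0.53, Jup and Dsg2 0.48 and Dsp and Jup 0.05, and these were 0.50, 0.66 and 0.36 after the group means were removed. Gja1 and Dsp, the most abundant members, had r = -0.16. Gja4 ran against Dsp (r = -0.62) and Cdh2 (r = -0.53). These values are descriptive, since the genes share libraries and depth, and with 12 rats in 4 groups weak correlations are no finding.

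**Figure D5:**
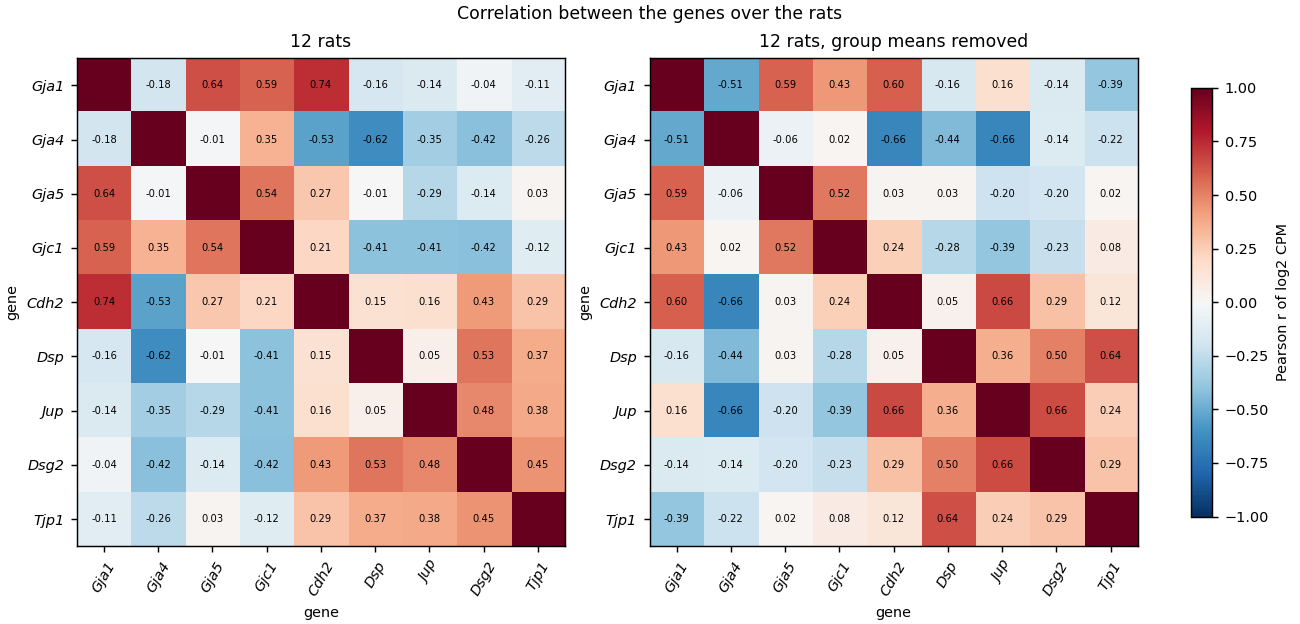
Pearson r of log2 CPM between each pair of the 9 genes over the 12 rats, before (left) and after (right) group means were removed. Gja1 and Cdh2 have the highest pair on the left (0.74).

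The genes whose pattern was most like that of a member were named for the 3 members whose group means spanned most, Gja1 (0.68 on the log2 scale), Gja4 (0.56) and Gjc1 (0.43). Over the 12 rats and 10319 other genes, Gja1 was most like Mov10 (r = 0.93), Morf4l2 (r = 0.93) and Laptm4b (r = 0.91). Mov10 followed the same order of group means, from 14.5 CPM in HFE and 12.6 CPM in Sham to 10.4 CPM in HF and 9.76 CPM in BAIBA. Morf4l2 and Laptm4b also had their highest means in HFE and the next in Sham. Their lowest means were in HF (87.2 and 43.9 CPM), below those in BAIBA (90.8 and 45.5 CPM). Gja4 was most like Chchd7, Zfp598 and LOC100360841 (r = 0.91, 0.91 and 0.90), and Gjc1 was most like Elp5, Dnajb11 and Kat2a (r = 0.94, 0.89 and 0.87). These are the highest values among many genes and 12 rats.

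Other genes of the junctions were read from lists drawn up alongside the members. None of them was called in any comparison by edgeR as fitted here, although Ppl was under some other settings given below, and of those named here DESeq2 gave Cdh11, Ppl and Evpl adjusted p-values under 0.05 with a log2 fold change over 1 in size. Of the 18 other connexins and pannexins in the table, 4 passed the filter on low counts. At an unadjusted p under 0.05, 1 of these 4 passed in HF against Sham, Gja3, the connexin46 gene, at 19.7, 23.9 and 17.5 CPM in Sham and 13.9, 15.9 and 13.1 CPM in HF (log2 fold change -0.51, SE 0.15, edgeR adjusted p = 0.805). Gja3 was also lower in BAIBA than in Sham (-0.36, edgeR adjusted p = 0.652), without overlap. Panx1 and Panx2, which form channels within 1 cell's membrane, did not pass in any comparison.

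Of the 13 other desmosome genes, 8 passed the filter. At an unadjusted p under 0.05, 1 of the 8 was higher in HF than in Sham (beside 6% of all genes in either direction), 1 higher in HFE than in HF (7.62%), 1 higher in BAIBA than in HF (5.55%), 1 lower in HFE than in Sham (11.2%) and 2 higher in BAIBA than in Sham (7.41%). A count of 1 is the smallest above 0 and says little beside these shares. In BAIBA against HFE (9.57%) 2 were higher and 1 lower, with a median log2 fold change of 0.30 beside 0.000489 for all genes. Ppl, which encodes periplakin, a linker to intermediate filaments, differed most. It was at 34.8, 20.1 and 29.4 CPM in BAIBA, 11.1, 9.55 and 12.2 CPM in HFE, 23.9, 9.57 and 15.2 CPM in HF and 19.5, 17.7 and 15.2 CPM in Sham. All BAIBA values were above the HFE and Sham values. In BAIBA against HFE the log2 fold change was 1.37 (SE 0.21, edgeR adjusted p = 0.0986). With the replicate number as a block, since same-numbered BAIBA and HFE rats deviated together, the Ppl adjusted p was 0.0314 with a log2 fold change of 1.34, which passes both limits. Without the filter on low counts (adjusted p = 0.0228) and without BAIBA rat 2 (log2 fold change 1.56, adjusted p = 0.0310) it also passed both in edgeR. With limma on log2(FPKM + 1), Ppl did not pass, at a log2 fold change of 1.02 and an adjusted p of 0.320. DESeq2 gave it an adjusted p of 3.97e-06. In HFE against Sham its log2 fold change was -0.67 (edgeR adjusted p = 0.203, DESeq2 adjusted p = 0.0379). Evpl, which encodes envoplakin, was at 7.58, 1.60 and 3.98 CPM in BAIBA and 0.288, 0.454 and 1.25 CPM in Sham (log2 fold change 2.74, SE 0.72, edgeR adjusted p = 0.499, DESeq2 adjusted p = 0.00838).

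Periplakin and envoplakin are known mainly from epithelia. Among mesothelial markers, the summed level of Msln, Upk3b, Upk1b, Wt1 and Krt19 was 24.1 to 83.4 CPM in BAIBA, 18.1 to 22.5 CPM in Sham, 21.6 to 25.7 CPM in HF and 19.0 to 23.5 CPM in HFE. Of these 5 markers Wt1 alone was counted in every rat, at 17.8, 22.8 and 18.8 CPM in BAIBA and 19.6, 19.0 and 23.5 CPM in HFE, without a higher level in BAIBA. Msln was 36.1, 1.03 and 10.3 CPM in the BAIBA rats and at 0.0666 CPM or below in every HFE rat. Over the 12 rats the log2 CPM of Ppl had r = 0.70 with the log2 sum of the mesothelial markers. This was not the largest value in size, since r was -0.87 with the conduction system markers. It was 0.60 with macrophage, -0.60 with endothelial and 0.51 with fibroblast markers. The part of mesothelium in the Ppl and Evpl levels was not tested. Perp, a desmosomal membrane protein gene, was at 65.4, 70.8 and 69.5 CPM in HFE and 58.0, 49.4 and 41.7 CPM in HF (log2 fold change 0.46, SE 0.13, edgeR adjusted p = 0.627), and in BAIBA against HFE its log2 fold change was -0.36 (edgeR adjusted p = 0.237). Dsc2, which encodes the partner cadherin of Dsg2, had a log2 fold change of 0.41 in BAIBA against HF (edgeR adjusted p = 0.851), and Tmem43 had one of 0.24 in HF against Sham (edgeR adjusted p = 0.805).

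Of the adherens junction genes, 13 were tested. At an unadjusted p under 0.05, 1 was higher and 1 lower in HF than in Sham (beside 6% of all genes) and likewise in HFE than in HF (7.62%), 1 was higher in BAIBA than in HF (5.55%), 1 was lower in BAIBA than in HFE (9.57%), 1 was lower in HFE than in Sham (11.2%), and 3 were lower in BAIBA than in Sham (7.41%). Cdh11, which encodes a cadherin of mesenchymal cells, was at 32.9, 46.4 and 23.2 CPM in Sham, 14.4, 17.1 and 11.4 CPM in HF, 22.3, 14.7 and 12.8 CPM in HFE and 25.9, 18.0 and 21.8 CPM in BAIBA. The Sham values were above all HF and HFE values. In HF against Sham the log2 fold change was -1.26 (SE 0.27, edgeR adjusted p = 0.737), and DESeq2 gave an adjusted p of 0.00463. In HFE against Sham it was -1.04 (edgeR adjusted p = 0.352, DESeq2 adjusted p = 0.0194), and without Sham rat 2, the highest, HF against Sham was -0.98. Fibroblast markers (Col1a1, Col1a2, Col3a1, Dcn, Pdgfra and Postn, all counted in every rat) summed to 1390 to 1495 CPM in Sham, 1085 to 1581 CPM in HF, 1044 to 1384 CPM in HFE and 1321 to 1902 CPM in BAIBA. At an unadjusted edgeR p under 0.05, 2 of these 6 markers were lower in HF than in Sham and none higher (beside 6% of all genes). In HFE against Sham 4 were lower and none higher (11.2%), and in BAIBA against Sham 1 was higher and none lower (7.41%). The part of fibroblasts in the Cdh11 level was not tested. The α-catenin gene Ctnna1 had a log2 fold change of -0.23 in BAIBA against HFE (edgeR adjusted p = 0.460), the β-catenin gene Ctnnb1 one of -0.28 in BAIBA against Sham (edgeR adjusted p = 0.656), the plakophilin-4 gene Pkp4 one of 0.28 in HF against Sham (edgeR adjusted p = 0.805) and -0.30 in HFE against HF (edgeR adjusted p = 0.635), and Nectin2 one of 0.33 in HFE against HF (edgeR adjusted p = 0.634).

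All 17 other disc and tight junction genes were tested. At an unadjusted p under 0.05, 4 of the 17 were lower in BAIBA than in HFE and none higher (beside 9.57% of all genes in either direction), with 14 of the 17 log2 fold changes below 0 and a median of -0.15 beside the 0.000489 of all genes. In HFE against Sham 3 were higher and none lower (11.2%), in HFE against HF 2 were higher (7.62%), in BAIBA against HF 2 were lower (5.55%), in BAIBA against Sham 1 was higher and 2 lower (7.41%), and in HF against Sham 1 was higher and 1 lower (6%). Lmo7, which encodes an actin-binding protein of the disc, was at 165, 199 and 192 CPM in BAIBA and 269, 264 and 227 CPM in HFE (log2 fold change -0.45, SE 0.11, edgeR adjusted p = 0.225, DESeq2 adjusted p = 0.0256). Xirp1, an actin-binding Xin-repeat gene of the disc, was at 161, 167 and 189 CPM in BAIBA, below the 210, 217 and 217 CPM in HF (log2 fold change -0.32, edgeR adjusted p = 0.851) and below the Sham values (-0.36, edgeR adjusted p = 0.488). Both genes were lower in BAIBA than in Sham and HF without overlap.

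The Z-disc and disc gene Nexn had its highest mean in HFE, at 746, 731 and 670 CPM against 590, 546 and 545 CPM in Sham, 550, 619 and 542 CPM in HF and 544, 691 and 508 CPM in BAIBA. The HFE values were above all Sham and HF values and overlapped those of BAIBA. Its log2 fold change was 0.36 against Sham (SE 0.07, edgeR adjusted p = 0.198, DESeq2 adjusted p = 0.0143) and 0.33 against HF (edgeR adjusted p = 0.627). Cav3, which encodes the muscle caveolin, was at 61.0, 66.5 and 63.5 CPM in Sham, 60.3, 42.8 and 49.6 CPM in HF, 64.2, 68.7 and 66.4 CPM in HFE and 71.0, 52.1 and 58.9 CPM in BAIBA. Its log2 fold change was -0.32 in HF against Sham (edgeR adjusted p = 0.805) and 0.38 in HFE against HF (edgeR adjusted p = 0.627). Fermt2, which encodes the integrin activator kindlin-2, had a log2 fold change of 0.20 in HFE against Sham (edgeR adjusted p = 0.361), and the adhesion gene Igsf11, at a mean of 1.53 CPM in HF, one of 1.14 in HF against Sham (edgeR adjusted p = 0.805). The comparisons that share a group share its 3 rats, so values of Gja1, Nexn and Perp in the 2 comparisons with HFE are not independent.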

How the data were processed

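The members and all gene lists were chosen with earlier results of these data known. Paired-end reads of oligo(dT)-selected RNA were mapped by the authors with HISAT2, StringTie added genes that the annotation lacked, and featureCounts assigned reads to genes. The deposited count values are whole numbers with no normalization. The deposited FPKM values are those counts scaled by gene length and library size by the authors. The submitters' processing notes list mm9, a mouse build, whereas the gene identifiers are rat, so the rat build and the strand setting of the counting are not given in the sources used here.

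Counts were analysed with edgeR 4.0.16 in R 4.3.3 (TMM, filterByExpr, robust quasi-likelihood fits of the 2 groups compared, no covariate). Standard errors are the log2 fold change over the square root of F. CPM used TMM factors over the 12 rats, and log2 CPM a prior count of 2. Alternatives were DESeq2 1.42.0, RLE or library-size scaling, no filter, 10 counts in every rat, all 12 rats, a replicate block, each rat left out, and limma 3.58.1 on log2(FPKM + 1) and log2(FPKM + 0.1). The fits were run on simulated data with changes larger than any member change seen here. Those runs do not bear on the detection of changes of the members' size. From each companion list, called genes or the 2 with the lowest p and a mean of at least 1 CPM were named, and likeness genes needed a mean of 5 CPM. Same-numbered rats are different animals. In BAIBA against HFE they deviated together (r of 0.195, 0.261 and 0.138), and in no other comparison was every r above 0.1. Nothing in the sources says how samples were prepared in batches.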

Additional observations from a re-analysis of the deposited data

How the results depend on the processing

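With 3 rats a group, no member passed the fold limit of the call in any comparison under any setting, so the 0 calls say little about stability. Members passed where the limit was absent: with DESeq2 in the test of the 4 groups 1 member (Gja1) and at an unadjusted p 2 members (Gja1 and Cdh2), and, chosen after the data were seen, with DESeq2 and no fold limit 1 member in HFE against HF and 1 in BAIBA against HFE, Gja1 in both. The cause of the difference between edgeR and DESeq2 was not tested. With each rat left out, the number of called members ranged from 0 to 0. Among the members' values, none of them called, Dsg2 in HF against Sham went from 0.02 to -0.20 without HF rat 3, and Gja5 in BAIBA against HF from 0.04 to -0.31 without BAIBA rat 1. A replicate block left the called members at 0 in each comparison, and Gja1 in BAIBA against HFE had an adjusted p of 0.0545 in the paired fit. The companion Ppl passed both limits in BAIBA against HFE with the block, without the low-count filter and without BAIBA rat 2, as given above. It did not pass with limma on log2(FPKM + 1). Low counts limit Gja4, Gja5 and Gjc1, and 3 rats a group limit all adjusted p-values.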
